A study of Mus musculus with 7 samples.

Results

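The genes of drug and toxin metabolism were followed in 7 mouse colon tumors as 4 enzyme families. Members were the protein-coding genes whose symbols belong to cytochrome P450 families 1 to 4 (Cyp), to the UDP-glucuronosyltransferase subfamilies Ugt1a, Ugt1b, Ugt2a and Ugt2b, to the glutathione S-transferase (Gst) classes alpha, kappa, mu, omega, pi and theta, or to the sulfotransferases (Sult). By that rule 136 of the 43346 genes listed were members, comprising 76 Cyp, 18 Ugt, 21 Gst and 21 Sult genes.

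Whole colon tumors came from recipients whose bone marrow (BM) had been replaced after lethal irradiation. The labels call these recipients wild-type C57BL6/J, 8 weeks old, while the study's methods describe congenic CD45.1 recipients, and the sex of the 7 mice is not given in the sources used here. In 4 tumors the graft carried a heterozygous loss of Dnmt3a, a DNA methyltransferase gene, labelled Dnmt3a(+/-) in BM and written Dnmt3a+/Δ BM here, and in 3 tumors it was Dnmt3a(+/+), written Dnmt3a+/+ BM. Donors of both groups had the interferon-inducible Mx1-Cre. Only their marrow was transplanted, into recipients wild type at Dnmt3a. The deletion was therefore carried by grafted blood cells, and the tumor epithelium of every mouse was wild type at Dnmt3a. All mice then received a single dose of 10 mg/kg azoxymethane (AOM) and 3 cycles of 3% dextran sulfate sodium (DSS) in the drinking water, the standard model of colitis-associated colon cancer (CAC). Poly(A) RNA was sequenced from 1 tumor per library. Library names placed Dnmt3a+/+ tumors 1 and 2 and Dnmt3a+/Δ tumors 1 and 2 in a set called BMT18, and Dnmt3a+/+ tumor 3 and Dnmt3a+/Δ tumors 3 and 4 in a set called BMT8.

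Cytochrome P450 enzymes oxidise lipophilic compounds, which is the first phase of their clearance and can also turn a procarcinogen into its reactive form. The transferases then attach a water-soluble group: glucuronic acid in the case of Ugt enzymes, glutathione in the case of Gst enzymes and sulfate in the case of Sult enzymes. The liver is the main site of this metabolism, and the differentiated intestinal epithelium is another. AOM is activated chiefly by Cyp2e1, mostly in the liver, before the resulting methylating agent reaches the colon.

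Total counts ranged from 38472738 to 64314999 per tumor, and no pair of tumors was a duplicate. Dnmt3a itself, whose deletion the blood cells alone carry, was at 20.2 to 24.3 CPM (gene counts scaled to library size) with Dnmt3a+/+ BM and 22.0 to 43.0 with Dnmt3a+/Δ BM, with edgeR adjusted p = 0.542, so whole-tumor RNA did not check the graft. The epithelial genes Krt8 and Epcam were at 3321 and 1543 CPM or more in every tumor. Of 7 hepatocyte markers, 4 were too low to be tested, and Fgb was at 0 throughout. Ttr was at 8.96 to 30.9 CPM and Tat at 10.2 to 17.8. Alb was at 0.725, 1.16 and 1.38 CPM with Dnmt3a+/+ BM and 2.02, 6.21, 4.61 and 6.79 with Dnmt3a+/Δ BM, without overlap. Its log2 fold change was 2.17 ± 0.51 (SE), with an adjusted p of 0.361 by edgeR and 0.00167 by DESeq2. Markers of stratified squamous epithelium, a tissue that lines the anal canal and not the colon, were also abundant in 6 of the 7 tumors. The summed level of 11 such genes (Krt5, Krt14, Krt13, Krt4, Krt1, Krt10, Trp63, Sox2, Ivl, Lor and Sprr1a, chosen after the values of members had been seen) was 27636, 6150.4 and 5514 with Dnmt3a+/+ BM and 36424, 465, 7260 and 5797 in Dnmt3a+/Δ tumors 1 to 4, on a per-length scale with the same sum in every tumor (the TPM scale, transcripts as a share of the total). The basal keratin Krt5 had 4 counts in Dnmt3a+/Δ tumor 2 and 44717 or more elsewhere. Dnmt3a+/Δ tumor 2 stood apart in other lists too, with 422 for fibroblast, 1124 for leukocyte and 58.5 for endothelial markers, beside 48.8 to 102, 149 to 244 and 3.04 to 13.5 in the other 6 tumors. In bulk tumors, fewer cells of a type and less RNA per cell cannot be told apart.

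A large share of the xenobiotic repertoire was at or near 0 in these tumors. Of 136 members, 28 had no count in any tumor and 51 had at most 3 counts in every tumor, which included all 8 Sult2a genes, the hydroxysteroid sulfotransferases known from liver. The filter on low counts kept 63 members, namely 30 of 76 Cyp, 6 of 18 Ugt, 20 of 21 Gst and 7 of 21 Sult genes. The 73 members it left out enter no fold change below.

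Glutathione transferases dominated the transcript pool. On the TPM scale, the Gst family summed to 10068, 3604 and 3662 in Dnmt3a+/+ tumors 1 to 3 and to 10451, 2122, 4171 and 3241 in Dnmt3a+/Δ tumors 1 to 4. It supplied 69.7% to 87.6% of the summed level of all members in each tumor. Cyp genes came next, at 1110, 820 and 325 with Dnmt3a+/+ BM and 1052, 344, 525 and 351 with Dnmt3a+/Δ BM. Sult genes stood at 398, 499 and 183 against 166, 109, 195 and 97.6. Ugt genes stood at 258, 250 and 123 against 254, 162, 159 and 99.5. For Sult, Dnmt3a+/Δ tumors 1, 2 and 4 lay below every tumor with Dnmt3a+/+ BM, and Dnmt3a+/Δ tumor 3 lay above Dnmt3a+/+ tumor 3 alone. For the other families the groups overlapped more widely. Group means of the summed level were 360.2 ± 161 (SD, n = 3) and 142 ± 46.4 (SD, n = 4) for Sult, a log2 ratio of -1.34. For Cyp, Ugt and Gst the log2 ratios were -0.40, -0.32 and -0.21, and the group means differed by less than 1 SD within either group. The Gst ratio changed sign without its most abundant gene, to 0.038, and without Dnmt3a+/Δ tumor 2, to 0.043.

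**Figure D1:**
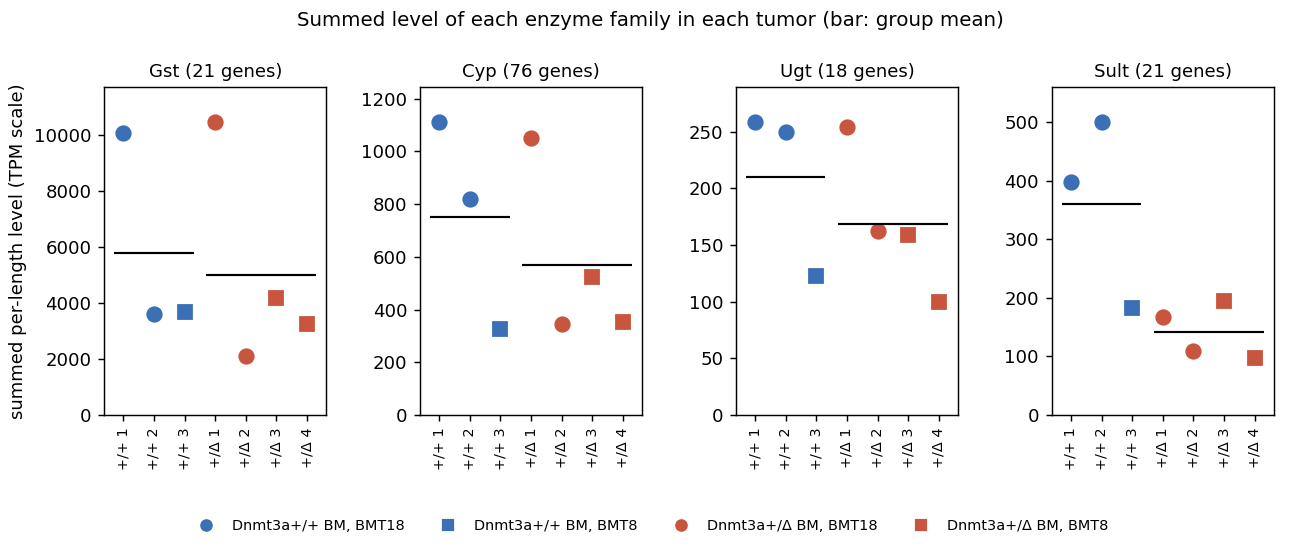
Summed per-length level (TPM scale, linear axes starting at 0) of the Gst, Cyp, Ugt and Sult families in each of the 7 tumors, with circles for BMT18, squares for BMT8, blue for Dnmt3a+/+ BM, red for Dnmt3a+/Δ BM and bars for group means. Tumor 1 of each group is the highest for Gst (10068 and 10451), and the Sult means are 360.2 and 142.

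Between groups, members were mostly lower with Dnmt3a+/Δ BM, but no member passed edgeR's adjusted test. Of the 63 tested members, 50 had a negative log2 fold change and 13 a positive one, so 79.4% were lower, beside 49.8% of all 15810 genes tested. At an unadjusted p under 0.05, 12 members were lower (19.0% of those tested, beside 5.2% of all genes) and 2 were higher (3.17%, beside 5.83%). None was called by edgeR at an adjusted p under 0.05 and a log2 fold change over 1 in size, as was the case for 0% of all genes, where the lowest adjusted p was 0.361 and 1744 genes were under an unadjusted 0.05. DESeq2 called 3 members, Sult1d1, Sult1b1 and Cyp4f40, all lower, beside 0.342% of all genes called lower. In 8 members every Dnmt3a+/Δ tumor lay below every Dnmt3a+/+ tumor (6.32% of all genes), and in none did every one lie above (6.12% of all genes). The 12 lower members at an unadjusted p under 0.05 became 8 without Dnmt3a+/Δ tumor 2. With a single tumor left out, they ranged from 6 (without Dnmt3a+/+ tumor 2 or Dnmt3a+/Δ tumor 4) to 20 (without Dnmt3a+/+ tumor 3).

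The median log2 fold change was -0.55 over all tested members, against 0.0025 over all genes. By family it was -1.29 for Sult, -0.64 for Cyp, -0.41 for Ugt and -0.33 for Gst. The Cyp median was -0.40 without Dnmt3a+/+ tumor 1, -0.98 without Dnmt3a+/+ tumor 3 and -1.09 without Dnmt3a+/Δ tumor 1. The Ugt median was 0.064 without Dnmt3a+/+ tumor 1, and -0.62, -0.18 and -0.26 without Dnmt3a+/Δ tumor 1, 2 or 3. Scaling by library size alone moved the median of all genes to 0.21 and those of the families to -1.10, -0.43, -0.24 and -0.13. The direction held in BMT18, with medians of -1.64 for Sult, -0.76 for Cyp, -0.32 for Ugt and -0.36 for Gst. In BMT8, where 1 Dnmt3a+/+ tumor was set against 2 Dnmt3a+/Δ tumors and no test was run, it held for Sult (-0.85) and Gst (-0.14) and not for Cyp (0.52), Ugt (0.50) or all members (0.12). There, 27 of the 62 members fitted were lower, beside 49.2% of all genes. Dnmt3a+/+ tumor 3, the control of that set, was the lowest of all 7 tumors for 16 of the 63 tested members (25.4%, beside 19.7% of all genes). That count was chosen after the members' values were seen.

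**Figure D2:**
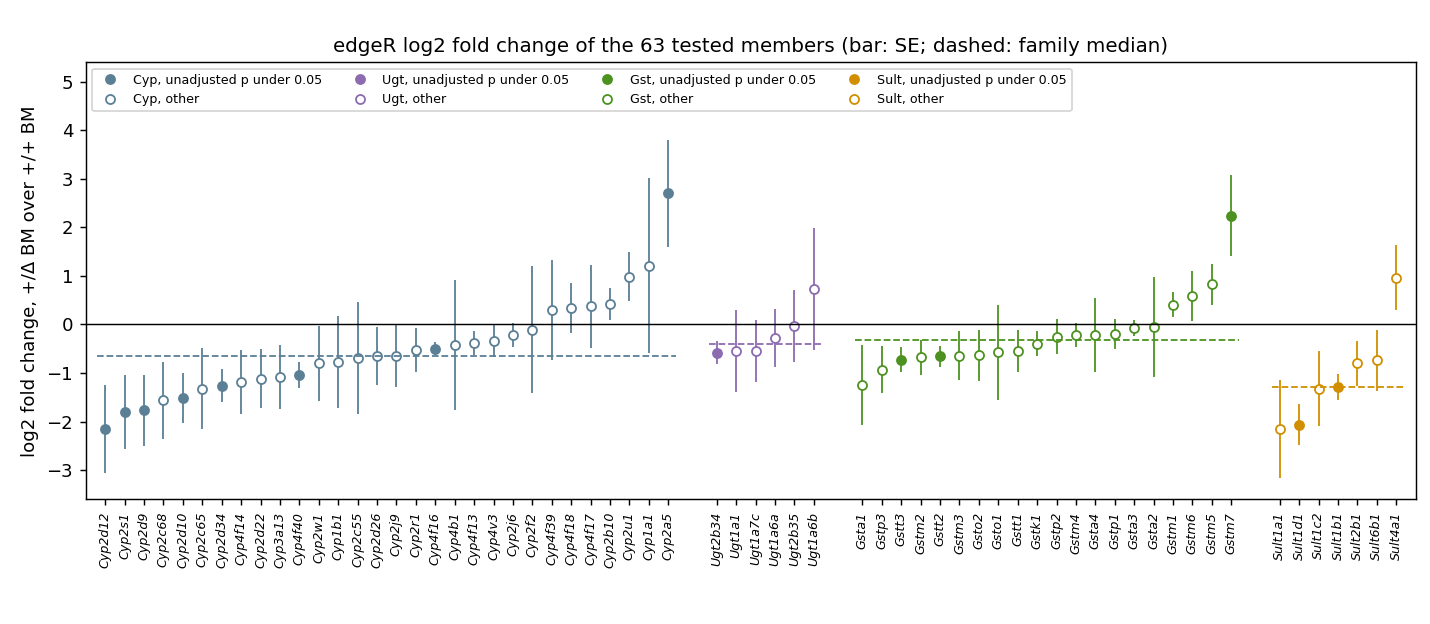
edgeR log2 fold change of each of the 63 tested members, Dnmt3a+/Δ BM over Dnmt3a+/+ BM, with bars for the SE, filled points for an unadjusted p under 0.05 and dashed lines for the family medians. Of the points, 50 lie below 0, and the dashed line for Sult is the lowest, at -1.29.

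The sulfotransferases held the members with the clearest difference. Sult1b1, an enzyme of thyroid hormone and phenol sulfation that is typical of intestine, supplied 45.0% of the Sult level. Its CPM was 184, 192 and 150.0 in Dnmt3a+/+ tumors 1 to 3 and 79.5, 40.3, 94.2 and 73.0 in Dnmt3a+/Δ tumors 1 to 4. The groups did not overlap, and the log2 fold change was -1.29 ± 0.28 (SE), with an adjusted p of 0.361 by edgeR and 0.0103 by DESeq2. Sult1d1, which sulfates catecholamines and other phenols, was at 139, 129.5 and 55.5 CPM against 36.7, 17.5, 33.3 and 15.5. Here too every tumor with Dnmt3a+/Δ BM was below every tumor with Dnmt3a+/+ BM, by a log2 fold change of -2.07 ± 0.42 (SE), with an adjusted p of 0.361 by edgeR and 0.00163 by DESeq2. Within BMT18 the log2 fold changes of Sult1b1 and Sult1d1 were -1.64 and -2.30, and within BMT8 they were -0.85 and -1.18. Without Dnmt3a+/Δ tumor 2 they were -1.06 and -1.89.

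Sult1a1, the broad phenol sulfotransferase, did not keep this order. It was at 43.7 and 67.1 CPM in Dnmt3a+/+ tumors 1 and 2 but at 1.07 in tumor 3, below all of the Dnmt3a+/Δ tumors at 8.78, 7.17, 13.5 and 3.95. Its log2 fold change of -2.16 ± 1.01 (SE) missed the threshold in edgeR (adjusted p = 0.481) and turned to 3.02 within BMT8. Among colon epithelial markers, and chosen after their values were seen, the mature colonocyte genes Slc26a3, a chloride exchanger, and Aqp8, a water channel, were also low in Dnmt3a+/+ tumor 3, at 2.14 and 3.55 CPM against 129 and 91.9 in tumor 1 and 145 and 65.3 in tumor 2. Other markers of the same list were not low there, since Krt20, a keratin of mature colonocytes, was at 981, 744 and 1103 CPM in Dnmt3a+/+ tumors 1 to 3, and Car1, a carbonic anhydrase, was at 243, 289 and 341. Over the list of 13 colon epithelial markers, 12 were lower with Dnmt3a+/Δ BM, beside 49.8% of all genes, and the median was -0.71 on the log2 scale. The summed level of that list ranged from 22541 to 37737 with Dnmt3a+/+ BM, highest in tumor 3, and from 17256 to 26976 with Dnmt3a+/Δ BM. Its part in the lower Sult and Cyp values was not tested.

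Sult1b1 and Sult1d1 are neighbours on the minus strand of chromosome 5, and the 250 bases before the start of each are given to show the sequence upstream of the 2 members with the lowest edgeR p. They are RefSeq sequences of build GRCm38.p6, written 5′ to 3′ along the gene, at chr5:87538196-87538445 and chr5:87569007-87569256. Capitals mark the core of the xenobiotic response element, GCGTG or its complement CACGC, the motif bound by the aryl hydrocarbon receptor.
Sult1b1: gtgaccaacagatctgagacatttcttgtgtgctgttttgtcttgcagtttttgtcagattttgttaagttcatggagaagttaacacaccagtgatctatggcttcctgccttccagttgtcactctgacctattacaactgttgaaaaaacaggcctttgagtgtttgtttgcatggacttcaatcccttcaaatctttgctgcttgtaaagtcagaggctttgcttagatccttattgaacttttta
Sult1d1: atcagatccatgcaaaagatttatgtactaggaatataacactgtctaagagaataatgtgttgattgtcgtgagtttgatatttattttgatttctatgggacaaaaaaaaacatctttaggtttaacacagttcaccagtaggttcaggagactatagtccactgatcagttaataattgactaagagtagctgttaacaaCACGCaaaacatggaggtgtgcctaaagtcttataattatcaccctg
The core was found once upstream of Sult1d1, beginning at position -47 from its start, and not in this window of Sult1b1. The annotation gives Sult1b1 another start inside the gene, at whose upstream window the core did occur. Over all 32851 promoters of the same length, 28.2% held the core on either strand, against 25 of the 133 promoters that matched 116 members. Of the 67 promoters of tested members, 19 held it (28.4%), near the share of all promoters. The antioxidant response element, searched as TGACNNNGC on both strands, was in 10.2% of all promoters and 3.76% of those of members. Among promoters of tested members it was in 7.46%. A match describes the letters only.

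The chromosome 5 block that holds these genes, 86889767 to 87591594, contained 12 members from Ugt2b34 to Sult1e1, of which 4 could be tested. All 4 (Ugt2b34, Ugt2b35, Sult1b1 and Sult1d1) had negative log2 fold changes, beside 49.8% of all genes, with a median of -0.94. At an unadjusted p under 0.05 in edgeR, 3 were lower, beside 5.2% of all genes. Ugt2b34, a glucuronosyltransferase, was the most abundant Ugt gene with 46.8% of the family's level. It was at 181, 217 and 125 CPM with Dnmt3a+/+ BM and 101, 141, 129 and 94.5 with Dnmt3a+/Δ BM. The groups overlapped, and its log2 fold change was -0.58 ± 0.23 (SE), edgeR adjusted p = 0.433. Ugt2b35 differed by -0.036 ± 0.74.

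**Figure D3:**
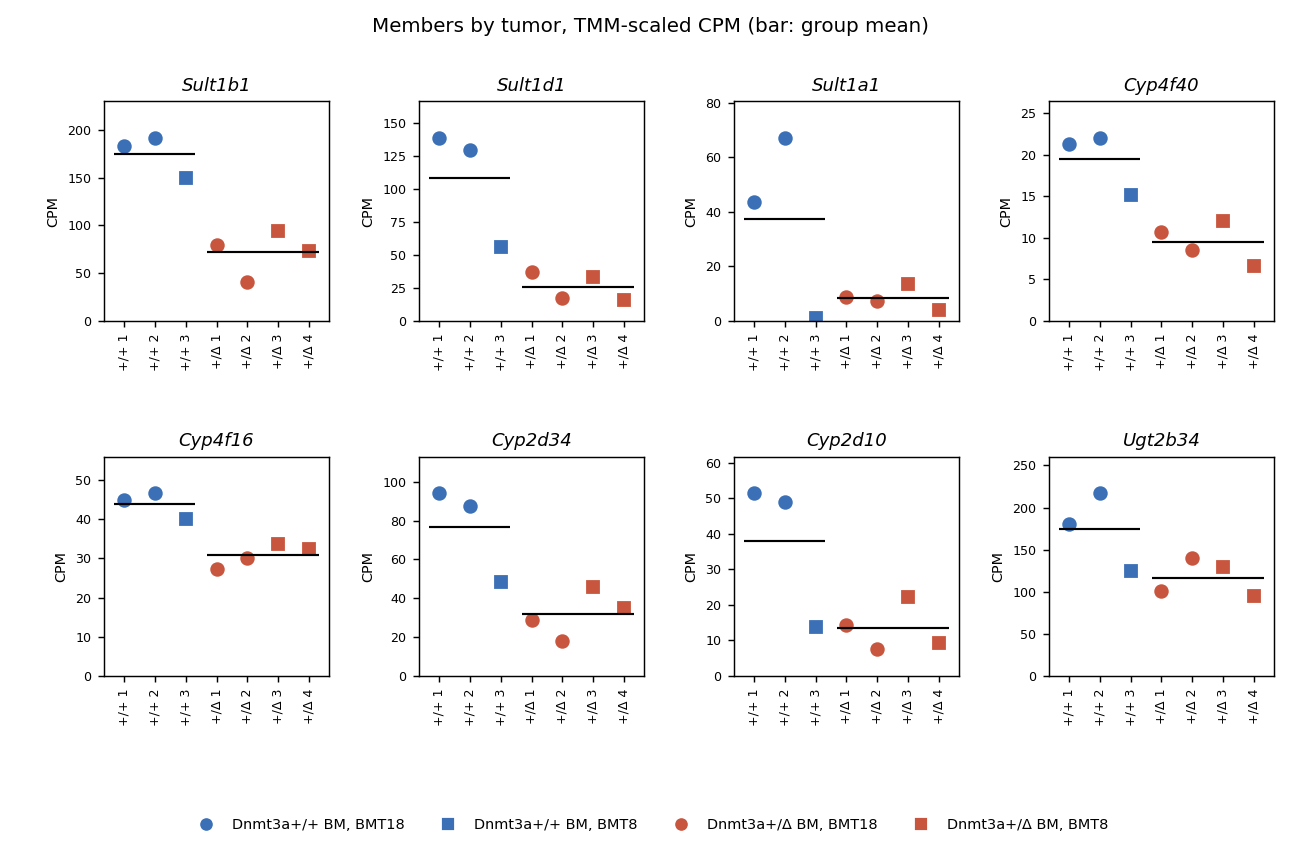
TMM-scaled CPM of 8 members in each tumor on linear axes starting at 0, with circles for BMT18, squares for BMT8, blue for Dnmt3a+/+ BM, red for Dnmt3a+/Δ BM and bars for group means. Sult1b1, Sult1d1, Cyp4f40, Cyp4f16 and Cyp2d34 do not overlap between groups, whereas Sult1a1 and Cyp2d10 do, through Dnmt3a+/+ tumor 3.

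Of the 30 cytochromes P450 tested, 3 had no overlap between groups, all lower, beside 6.32% of all genes. They belonged to the Cyp4f and Cyp2d subfamilies. Cyp4f enzymes hydroxylate the far end of fatty acids and eicosanoids. Cyp4f40 was at 21.3, 22.0 and 15.2 CPM with Dnmt3a+/+ BM and 10.7, 8.54, 11.98 and 6.54 with Dnmt3a+/Δ BM, without overlap. Its log2 fold change was -1.05 ± 0.26 (SE), with an adjusted p of 0.361 by edgeR and 0.0391 by DESeq2. Its neighbour Cyp4f16 was at 44.9, 46.6 and 40.0 CPM against 27.4, 30.2, 33.7 and 32.5, also without overlap, a smaller but tight difference of -0.50 ± 0.14 with an edgeR adjusted p of 0.361. Of the 7 Cyp4f genes tested, 4 were lower and 3 higher (57.1% lower, beside 49.8% of all genes), with a median of -0.38.

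The Cyp2d block on chromosome 15 (82370527 to 82794294), whose human counterpart oxidises many drugs, held 8 members. All 6 that could be tested were lower, beside 49.8% of all genes. At an unadjusted p under 0.05 in edgeR, 4 were lower, beside 5.2% of all genes. Cyp2d34 was at 94.1, 87.3 and 48.5 CPM against 28.6, 18.23, 45.8 and 34.8, so that the groups nearly touched between tumor 3 of each. Its log2 fold change was -1.27 ± 0.34 (SE), edgeR adjusted p = 0.361. Cyp2d10 was at 51.4, 49.0 and 13.8 CPM against 14.3, 7.68, 22.1 and 9.35, with overlap through Dnmt3a+/+ tumor 3 and a log2 fold change of -1.51 ± 0.52 (edgeR adjusted p = 0.406). The median over the 6 genes was -1.39 in all tumors, -2.07 within BMT18 and 0.95 within BMT8. Cyp2d34, which supplied 46.4% of the Cyp2d level, was the 1 gene of the 6 that was also lower within BMT8, at -0.27. Cyp2d10 and Cyp2d34 differ in how far reads can be assigned, since 11.7% of the 100-base words of Cyp2d10 and 0.0657% of those of Cyp2d34 also occur in another gene.

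The order of tumors behind these results recurred, but the order counted was chosen after the members' values were seen. In 24 of the 63 tested members the 2 highest tumors were Dnmt3a+/+ tumors 1 and 2 (38.1%, beside 10.6% of all genes), among them 15 of 30 Cyp and 4 of 7 Sult genes. Cyp2c68, of the subfamily that epoxidises arachidonic acid, belonged to them with 64.6, 78.2 and 9.21 CPM against 25.2, 6.70, 29.8 and 6.79. Its log2 fold change was -1.57 ± 0.79 (edgeR adjusted p = 0.505) and turned to 0.99 within BMT8. Cyp2j6, an epoxygenase of the gut and the second most abundant Cyp gene, varied little, from 59.0 CPM in Dnmt3a+/Δ tumor 2 to 124 in Dnmt3a+/+ tumor 3, with a log2 fold change of -0.22 ± 0.25.

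A different pattern marked Gsto1, Gsta4 and Cyp2f2, which were among the most abundant members. Gsto1, an omega-class transferase that reduces dehydroascorbate and arsenic species, made up 61.2% of the Gst level and 50.9% of that of all members. It was at 6516, 1527 and 1513 CPM with Dnmt3a+/+ BM and at 5564, 209, 1492 and 1323 with Dnmt3a+/Δ BM. Tumor 1 of each group was far above the rest and Dnmt3a+/Δ tumor 2 far below. Apart from tumor 1, every Dnmt3a+/Δ tumor lay below every Dnmt3a+/+ tumor, though at 1492 and 1323 CPM against 1513 the gap was partly small. The log2 fold change was -0.57 ± 0.98 (edgeR adjusted p = 0.875). Gsta4, which conjugates the lipid peroxidation product 4-hydroxynonenal, had the same 2 highest tumors and the same lowest one, at 784, 215 and 373 CPM against 835, 67.7, 288 and 381. Cyp2f2, a naphthalene-activating P450 best known from airway club cells, supplied 35.7% of the Cyp level and ran from 501 CPM in Dnmt3a+/Δ tumor 1 to 2.08 in Dnmt3a+/Δ tumor 2, with 404, 71.6 and 98.7 in the Dnmt3a+/+ tumors. The group means differed by -0.11 ± 1.31 on the log2 scale. In 9 of the 63 tested members tumor 1 of each group was highest and Dnmt3a+/Δ tumor 2 lowest (14.3%, beside 4.8% of all genes). They were Gsto1, Gsta4, Gsta2, Cyp2f2, Cyp2j9, Cyp4b1, Cyp4f39, Ugt1a1 and Ugt1a6a. This order too was chosen after the members' values were seen.

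All 11 squamous markers were lowest in Dnmt3a+/Δ tumor 2, and 10 had tumor 1 of each group as their 2 highest. Krt14, a basal keratin, was at 6561, 1410.0 and 1608 CPM with Dnmt3a+/+ BM and 7171, 149, 1247 and 1611 with Dnmt3a+/Δ BM. The summed squamous level thus shared its 2 highest tumors and its lowest one with Gsto1, Gsta4 and Cyp2f2, while the order of the 4 tumors in between differed. The part of squamous cells in the levels of these members was not tested. Cyp2b19, a P450 known from keratinocytes, was too low to be tested, with 25, 14 and 0 counts against 71, 0, 0 and 0, again highest in tumor 1 of the Dnmt3a+/Δ group and then of the Dnmt3a+/+ group.

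**Figure D4:**
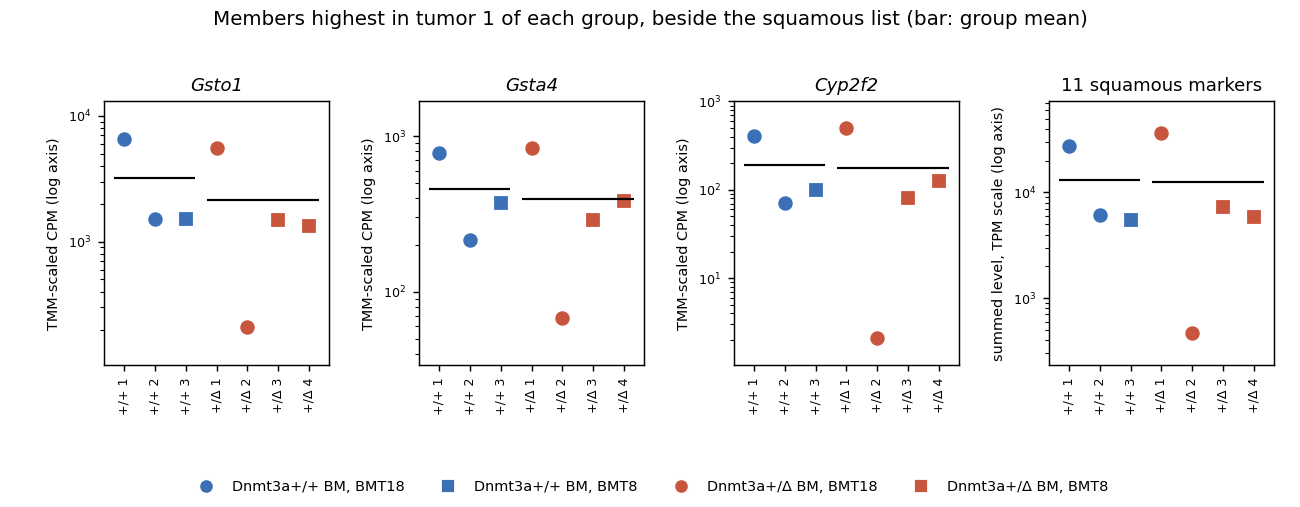
TMM-scaled CPM of Gsto1, Gsta4 and Cyp2f2, and summed per-length level (TPM scale) of 11 squamous markers, in each tumor on log axes, with circles for BMT18, squares for BMT8, blue for Dnmt3a+/+ BM, red for Dnmt3a+/Δ BM and bars for group means. In each panel tumor 1 of both groups is highest and Dnmt3a+/Δ tumor 2 lowest, from 6516 to 209 CPM for Gsto1 and from 36424 to 465 for the markers.

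Among the other abundant Gst genes, Gstp1 and Gstp2, pi-class transferases that take many electrophiles, were at 164 to 366 and 58.5 to 167 CPM over the 7 tumors, with the highest value of each in Dnmt3a+/+ tumor 3 and log2 fold changes of -0.20 ± 0.31 and -0.25 ± 0.36. Gsta1 was at 70.7, 58.3 and 239 CPM against 88.7, 5.28, 57.0 and 55.4, with a log2 fold change of -1.25 ± 0.83 (edgeR adjusted p = 0.604) that became -0.33 without Dnmt3a+/+ tumor 3, its highest tumor. These genes share sequence, as 25.1% of the 100-base words of Gstp1, 46.9% of those of Gstp2 and 80.6% of those of Gsta1 occur in another gene, so the division of reads among them is uncertain. In the theta class on chromosome 10, all 3 genes tested were lower, beside 49.8% of all genes. Gstt2 and Gstt3 were lower at an unadjusted p under 0.05 in edgeR, beside 5.2% of all genes. Their log2 fold changes were -0.66 ± 0.22 and -0.72 ± 0.25. The groups did not overlap in either gene, as in 6.32% of all genes.

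The mu class was divided in direction, with 42.9% of its genes lower, beside 49.8% of all genes. In its cluster on chromosome 3 (107895821 to 108044894) all 7 genes were tested, 4 of which were higher with Dnmt3a+/Δ BM, and the median was 0.41 on the log2 scale, or 0.11 without Dnmt3a+/Δ tumor 2. Gstm7 was at 5.80, 8.56 and 3.27 CPM with Dnmt3a+/+ BM and at 5.84, 69.8, 23.5 and 12.4 with Dnmt3a+/Δ BM. Only Dnmt3a+/Δ tumor 1 fell within the range of the other group. Its log2 fold change was 2.24 ± 0.84 (SE), with an adjusted p of 0.42 by edgeR and 0.0747 by DESeq2, and it was 1.28 without Dnmt3a+/Δ tumor 2. Gstm5, Gstm6 and Gstm7 had their highest value in that tumor, where the fibroblast, leukocyte and endothelial markers were also highest. The part of those cell types was not tested. Cyp2a5, the coumarin hydroxylase and a P450 that acts on nitrosamines, was the other member higher at an unadjusted p under 0.05. It was at 0.591, 0.687 and 1.10 CPM against 1.87, 16.2, 1.60 and 0.892, and its log2 fold change of 2.7 ± 1.1 became 0.90 without Dnmt3a+/Δ tumor 2.

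The Ugt1a genes share their last exons, and 77.4%, 50.4% and 51.6% of the 100-base words of Ugt1a1, Ugt1a6a and Ugt1a7c occur in another gene. Ugt1a7c, the most abundant of them, was at 141, 104 and 25.4 CPM against 122, 40.7, 55.8 and 28.9. Ugt1a1, the bilirubin-conjugating enzyme, was at 49.0, 26.0 and 33.2 CPM against 63.1, 2.75, 12.2 and 20.4. Neither separated the groups, with log2 fold changes of -0.54 ± 0.64 and -0.55 ± 0.84, and Ugt1a6a, a phenol-conjugating enzyme, differed by -0.27 ± 0.59. In Dnmt3a+/+ tumor 3, 525 counts were assigned to Ugt1a8, which had 0 in the other 6 tumors. Since these genes share exons, the division of reads among them is uncertain. No fold change is given for Ugt1a8, and those of Ugt1a1, Ugt1a6a and Ugt1a7c carry the same uncertainty.

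Cyp2e1, the enzyme that activates AOM, was close to silent in the tumors. It had 7, 0 and 3 counts with Dnmt3a+/+ BM and 4, 13, 5 and 9 with Dnmt3a+/Δ BM, at most 0.265 CPM, and did not pass the filter. At the time of harvest, weeks after AOM, these values describe the tumors and not the liver or the mucosa in which the carcinogen was activated. Mgmt, which removes the methyl adduct that AOM leaves on guanine, was at 1.47 to 2.58 CPM against 1.06 to 2.495, with a log2 fold change of -0.062 ± 0.41 and an edgeR adjusted p of 0.975.

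Cyp1a1, the classic target of the aryl hydrocarbon receptor, was also low, with 19, 22 and 0 counts against 100, 1, 0 and 7. Ahr, which encodes the receptor, was at 49.7, 21.5 and 14.3 CPM against 45.6, 23.7, 23.8 and 24.1, so that tumor 1 of each group was again highest. The 250 bases before the RefSeq start of Cyp1a1, on the plus strand at chr9:57697363-57697612, are shown with a match to GCGTG in capitals. It begins at position -54 from that start. The match is of letters only, and binding of the receptor there was not tested. In the GENCODE annotation the gene begins 9685 bases further upstream, so the window lies inside it.
Cyp1a1: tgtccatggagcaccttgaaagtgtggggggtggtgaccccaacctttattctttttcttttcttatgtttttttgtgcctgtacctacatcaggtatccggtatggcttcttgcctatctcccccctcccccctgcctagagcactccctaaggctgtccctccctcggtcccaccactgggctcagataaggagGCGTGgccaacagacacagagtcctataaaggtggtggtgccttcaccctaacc
Neither gene differed between the groups beyond its spread, with log2 fold changes of 1.21 ± 1.80 for Cyp1a1 and 0.041 ± 0.45 for Ahr (edgeR adjusted p = 0.848 and 0.986).

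The wider pathway was read from 3 lists of genes outside the families. Of 13 tested regulators, 9 were lower and 4 higher, beside 49.8% of all genes lower. At an unadjusted p under 0.05 in edgeR, 4 were lower, beside 5.2% of all genes. The median was -0.54 on the log2 scale. Hnf4a, a nuclear receptor that maintains enterocyte and hepatocyte programs, was at 479, 765 and 412 CPM with Dnmt3a+/+ BM and 290.2, 255, 378 and 291 with Dnmt3a+/Δ BM, without overlap. Its log2 fold change was -0.86 ± 0.25 (SE), edgeR adjusted p = 0.377. The bile acid receptor Nr1h4 was at 54.7, 56.4 and 73.7 CPM against 30.6, 14.97, 43.5 and 33.1 (-1.01 ± 0.33, edgeR adjusted p = 0.392), again without overlap. The xenobiotic receptors Nr1i3 (constitutive androstane receptor) and Nr1i2 (pregnane X receptor) gave -1.47 ± 0.47 and -0.83 ± 0.31. Nfe2l2, which encodes the regulator of the antioxidant response, gave 0.21 ± 0.15.

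Most genes of cofactor supply were lower, though their median was small. Of 11 such genes, 9 were lower and 2 higher, beside 49.8% of all genes lower. None had an unadjusted p under 0.05 in edgeR, and the median was -0.097. Ugp2, without overlap between groups, gave -0.36 ± 0.15 (edgeR adjusted p = 0.455). Ugdh, Papss1 and Gss gave -0.49 ± 0.22, -0.55 ± 0.30 and -0.56 ± 0.31. Por, the reductase that passes electrons to the P450 enzymes, differed by 0.18 ± 0.24. Of 25 tested other detoxifying enzymes and exporters, 17 were lower and 8 higher, beside 49.8% of all genes lower, with a median of -0.60. At an unadjusted p under 0.05 in edgeR, 4 were lower, beside 5.2% of all genes. The lowest p values were those of Ces2c, a carboxylesterase (-1.50 ± 0.46), Nat2, an arylamine acetyltransferase (-0.58 ± 0.19), and Abcg2, an efflux pump (-0.75 ± 0.28), with edgeR adjusted p values of 0.383, 0.403 and 0.42. No gene of the 3 lists was called by edgeR or DESeq2.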

How the data were processed

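Poly(A) RNA of 7 whole colon tumors (4 Dnmt3a+/Δ BM, 3 Dnmt3a+/+ BM) was measured. Per the labels and the study's methods, the authors trimmed reads with Trimmomatic, checked them with FastQC, aligned them to mm10 with STAR and estimated counts per gene with RSEM. The deposited values are these expected counts, 100% of them whole numbers, with no normalization; the annotation release and strand setting are not given in the sources used here. Symbols, lengths and positions were taken from GENCODE M21 (GRCm38), which matched 42462 of 43346 identifiers; unmatched genes held 0.104% of counts.

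Groups were contrasted by the quasi-likelihood test of edgeR 4.0.16 under R 4.3.3, with TMM scaling, filterByExpr, no covariate and Benjamini-Hochberg adjustment over 15810 genes. Calls needed both an adjusted p below 0.05 and a log2 fold change beyond 1 in either direction. Levels between genes use counts per exon-union length, scaled to the same sum in every tumor. CPM were TMM-scaled. Named genes were the most abundant 5 Cyp, Ugt and Gst and 3 Sult members, Cyp2e1, Cyp1a1, up to 5 members per direction with the lowest p under 0.05, members called by either tool, and the leading genes of 3 partner lists with Ahr, Nr1i2, Nfe2l2, Por and Mgmt; other genes named were chosen after their values were seen. The members and lists were chosen with earlier results of these data known.

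Alternatives were DESeq2 1.42.0, other scalings, filters and lengths, BMT18 or BMT8 as a covariate, replicate numbers as a block, omission of single tumors, BMT18 alone and, chosen after seeing the data, BMT8 alone. Simulated data with 100 of 15810 genes changed 4-fold and 100 changed 8-fold, at gene-wise dispersions, gave recovery of 41 and 79 by edgeR with 4 false calls, and of 71 and 86 by DESeq2 with 57 false calls. The labels call the tumors of a group biological replicates without naming mice, so p-values measure the spread between these tumors, which may be partly technical.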

Additional observations from a re-analysis of the deposited data

Results flagged for a closer look

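Of 46 values examined over the 4 Dnmt3a+/Δ tumors, 7 had a single tumor set apart from the other 3 by more than the range of those would allow in Dixon's test, where chance gives about 1 in 20, or 2.3. Cyp1a1 was at 2.495 CPM in Dnmt3a+/Δ tumor 1 (the other 3 up to 0.189), and Ahr was at 45.6 CPM in the same tumor (the other 3 from 23.7 to 24.1). Cyp2a5 was at 16.2 CPM in Dnmt3a+/Δ tumor 2, the other 3 being at 0.892 to 1.87. The same tumor stood apart in the summed per-length level of the fibroblast list at 422 (others 78.6 to 102), the leukocyte list at 1124 (others 211 to 234), the mast cell list at 36.9 (others 1.147 to 5.24) and the endothelium list at 58.5 (others 7.35 to 13.5). Their part in the members' values was not tested. The squamous markers, though far lower in that tumor, were chosen later and were not among the values examined.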

How the results depend on the processing

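The number of genes called was 0 by edgeR under every scaling, filter, covariate and tumor left out, and 299 with DESeq2, 3 of them members. The 14 members at an unadjusted p under 0.05 became 8 with library size only, 9 with the set of libraries as a covariate and 9 with the replicate block, and ranged from 7 (without Dnmt3a+/+ tumor 1 or 2) to 20 (without Dnmt3a+/+ tumor 3) with a tumor left out, 8 without Dnmt3a+/Δ tumor 2 or 4. Same-numbered tumors had correlations of deviations of 0.568, 0.0711 and -0.0377, and not every tumor correlated best with its own number, so the numbers were not taken as pairs. The median log2 fold change of Ugt ranged from -0.62 to 0.064 with a tumor left out, turning positive without Dnmt3a+/+ tumor 1. The log2 ratio of the Gst level ranged from -0.86 (without Dnmt3a+/Δ tumor 1) to 0.46 (without Dnmt3a+/+ tumor 1), and was 0.038 without the most abundant member. The medians of all members, Cyp, Gst and Sult kept their sign under the other scalings, filters and covariates and with any tumor left out. Signs turned for the following named genes, and the cause was not tested. BMT8 alone gave Cyp2f2 0.064, Cyp2c68 0.99, Cyp2d10 0.19, Ugt1a7c 0.74, Ugt1a6a 0.27, Ugt2b35 1.47, Sult1a1 3.02, Abcg2 0.15 and Mgmt 0.11. BMT18 alone gave Cyp2f2 0.074, Gstp1 0.13, Ahr -0.032 and Mgmt 0.018. Library size only gave Cyp2f2 0.027, Ugt2b35 0.16, Gstp1 0.038 and Mgmt 0.13. The covariate gave Cyp2f2 0.078, Ugt2b35 0.51 and Mgmt 0.050, and the replicate block Ugt2b35 0.62 and Cyp1a1 -0.11. With a tumor left out, ranges crossed 0 for Cyp2f2 (-1.46 to 1.06), Ugt1a6a (-0.73 to 0.23), Ugt2b35 (-0.51 to 0.35), Gsto1 (-1.66 to 0.50), Gsta4 (-0.90 to 0.42), Gstp1 (-0.41 to 0.27), Gstp2 (-0.49 to 0.29), Ahr (-0.28 to 0.71) and Mgmt (-0.26 to 0.15). Members with few counts, Cyp2e1 among them, could not be compared at this depth.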
